A study of Mus musculus with 16 samples.

Results

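Glutamine synthetase and the genes that make, move and break down glutamate were measured in whole inner ears of newborn (P0) 129SvEv mice, in wild-type animals and in COUP-TFI-/- animals that lack the orphan nuclear receptor COUP-TFI (Nr2f1). The genes were listed by name as Glul, Glns-ps1, Glud1, Slc1a1, Slc1a2, Slc1a3 and Gad1, and every probe set that the platform annotation assigns to 1 of them was taken. This gave 6 of the 8251 genes with a probe set of their own on the Affymetrix MG-U74Av2 chip, and 9 of its 12422 probe sets that are not controls, with 2 each for Glul, Glud1 and Slc1a1 and 1 each for Glns-ps1, Slc1a2 and Gad1. Slc1a3 had 0 probe sets under this annotation and was dropped. The genes were chosen in part on their genotype differences on these chips, with the disagreement of the Glul probe sets already known. Genotype differences of the 9 probe sets are therefore given as a description, with no test. The study ran 8 chips as hybridization sets A and B, at separate times, each with 1 pool of RNA for either genotype on a pair of chips numbered 1 and 2. Every pool combined several ears, so there were 2 pools per genotype, and the spread of a chip pair is that of the array and not of the animals. The allele is given as COUP-TFI-/- with no tissue-restricted driver, and all cell types of the dissected ear went into a pool, so a difference in the number of cells of a type and a difference in RNA per cell cannot be told apart.

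Glutamate is the transmitter between hair cells and auditory neurons, and it is toxic to nerve endings when it accumulates. Supporting cells and glia take it up through transporters of the Slc1a family and convert it with ammonia to glutamine by glutamine synthetase, the product of Glul. Glutamate dehydrogenase (Glud1) feeds glutamate into the mitochondrial citric acid cycle, and glutamate decarboxylase (Gad1) turns it into GABA, the transmitter of inhibitory neurons. Glul is also expressed in muscle, fat and liver, where it handles ammonia and supplies glutamine.

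Glul lies on chromosome 1 (153899929 to 153909723, GRCm38.p6) and Glns-ps1, a glutamine synthetase pseudogene annotated over 1355 bases, on chromosome 11 (19720222 to 19721576). Glud1 is on chromosome 14 (34310727 to 34345033), Slc1a1 on chromosome 19 (28835135 to 28913960), Slc1a2 on chromosome 2 (102658239 to 102790784) and Gad1 on the same chromosome (70561303 to 70602014). The promoter of Glul is shown because COUP-TFI, the factor missing from the knockout, binds repeats of the motif AGGTCA. The 250 bases before the RefSeq start site of Glul (chr1:153899679-153899928, plus strand, 5′ to 3′) hold 1 such motif, in capitals:

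Glul: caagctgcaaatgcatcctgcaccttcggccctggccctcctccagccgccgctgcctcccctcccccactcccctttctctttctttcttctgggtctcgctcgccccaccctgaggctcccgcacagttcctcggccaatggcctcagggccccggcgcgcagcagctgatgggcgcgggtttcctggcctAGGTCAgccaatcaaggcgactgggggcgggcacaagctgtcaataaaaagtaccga

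The match is on the plus strand, from -57 to -52 relative to the start site. Searching both strands of the 300-base RefSeq windows (250 bases before and 50 after a start site), 16.3% of 32851 windows held AGGTCA, so it is common. Of the 6 listed genes with a window (Slc1a3 included), Slc1a2 held a match too, at 45 to 50 after the start site of its window, and Glud1, Slc1a1, Slc1a3 and Gad1 held no match to these letters. The windows of Slc1a2 (chr2:102706188-102706487) and Gad1 (chr2:70561879-70562178) lie inside the gene spans given above, so the annotated 5′ ends of these genes were not searched. The direct repeat AGGTCANAGGTCA, which contains the motif, was found in 0 of these 6 windows and in 13 of the 32851 (0.0396%). A match to these letters is not a binding site.

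The authors deposited each chip with 2 normalizations, GCRMA on a log2 scale and dChip as linear intensities. Duplicate chips correlated across probe sets at 0.996 to 0.997 with GCRMA and 0.993 to 0.995 with dChip, and chips of different sets at 0.979 to 0.987 and 0.966 to 0.978. Nr2f1 was between 7.74 and 8.83 on the wild-type chips and between 4.68 and 5.27 on the COUP-TFI-/- chips, so they follow their labels with no overlap. Of 12 measured genes of inner ear epithelium and otic matrix, of 16 listed, 11 lay above the chip median on all 8 chips with GCRMA, as did 5 of 7 measured hair cell genes of 12 listed. A gene was counted if at least 1 of its probe sets did so. By probe set this was 11 of 15 and 6 of 10. With dChip it was 9 of the 12 genes and 5 of the 7. Genotype differences are given on the log2 scale as COUP-TFI-/- less wild-type, with the standard error (SE) of a limma fit of the 4 pool means over all probe sets.

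Glul probe set 94852_at was higher in COUP-TFI-/- in both sets and with both normalizations. Wild-type chips A1, A2, B1 and B2 had GCRMA values of 7.85, 8.10, 7.56 and 7.52. The COUP-TFI-/- chips in the same order had 8.82, 8.87, 8.08 and 8.24. Within each set both COUP-TFI-/- chips lay above both wild-type chips, whereas across sets chip B1 of COUP-TFI-/- lay just below chip A2 of wild-type. The GCRMA difference, 0.87 (set A) and 0.62 (set B), averaged 0.74 (SE 0.10, n = 2 pools per genotype), a 1.67-fold level. With dChip the intensities were 1752, 2034, 1841 and 1784 on the wild-type chips A1, A2, B1 and B2 and 2709, 2629, 2685 and 2627 on the COUP-TFI-/- chips. No chip of 1 genotype overlapped with the other, and the 4 COUP-TFI-/- chips were closer to each other than the 4 wild-type chips. The dChip difference, 0.50 (set A) and 0.55 (set B), averaged 0.53 (SE 0.10), a 1.44-fold level.

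The second Glul probe set, 161826_r_at, did not show this difference. Its ending marks a probe set for which the array's design rules could not all be met. With GCRMA, chips A1, A2, B1 and B2 had 9.71, 9.65, 9.43 and 9.52 in wild-type and 9.47, 9.81, 9.28 and 9.21 in COUP-TFI-/-. The genotypes overlapped in set A, and in set B both COUP-TFI-/- chips were lower, with differences of -0.03 and -0.23 and a mean of -0.13 (SE 0.10). Its dChip intensities ran from 1432 to 1587 in wild-type and from 1414 to 1758 in COUP-TFI-/-, overlapping in both sets, with a mean difference of 0.05 (SE 0.10). Neither Glul probe set was dim: 161826_r_at lay between the percentiles 86.7 and 92.7 of all probe sets on a chip with GCRMA, and 94852_at between 56.9 and 82.7. With dChip these ranges were 91.1 to 94.2 and 94.2 to 97.5. Both had a similar gap between duplicate chips, of at most 0.34 and 0.25 log2 units with GCRMA and 0.31 and 0.22 with dChip.

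Glns-ps1 probe set 99498_at had differences in the same direction as Glul 94852_at. With GCRMA, chips A1, A2, B1 and B2 had 5.38, 5.39, 5.07 and 5.25 in wild-type and 5.54, 5.73, 5.51 and 5.56 in COUP-TFI-/-. All 4 COUP-TFI-/- chips lay above all 4 wild-type chips, with differences of 0.25 (set A) and 0.38 (set B) and a mean of 0.32 (SE 0.10). The dChip intensities in the same order were 110, 112, 57.8 and 62.4 in wild-type and 134, 123, 121 and 161 in COUP-TFI-/-. Here too the genotypes did not overlap, but the difference of 0.21 in set A stood against 1.22 in set B (mean 0.71, SE 0.24), where the wild-type pool was lower than in set A. The signal was low, between the percentiles 14.6 and 22.5 with GCRMA and 8.83 and 31.6 with dChip. Whether this probe set measures pseudogene RNA or the related Glul transcript cannot be told apart from these values.

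**Figure D1:**
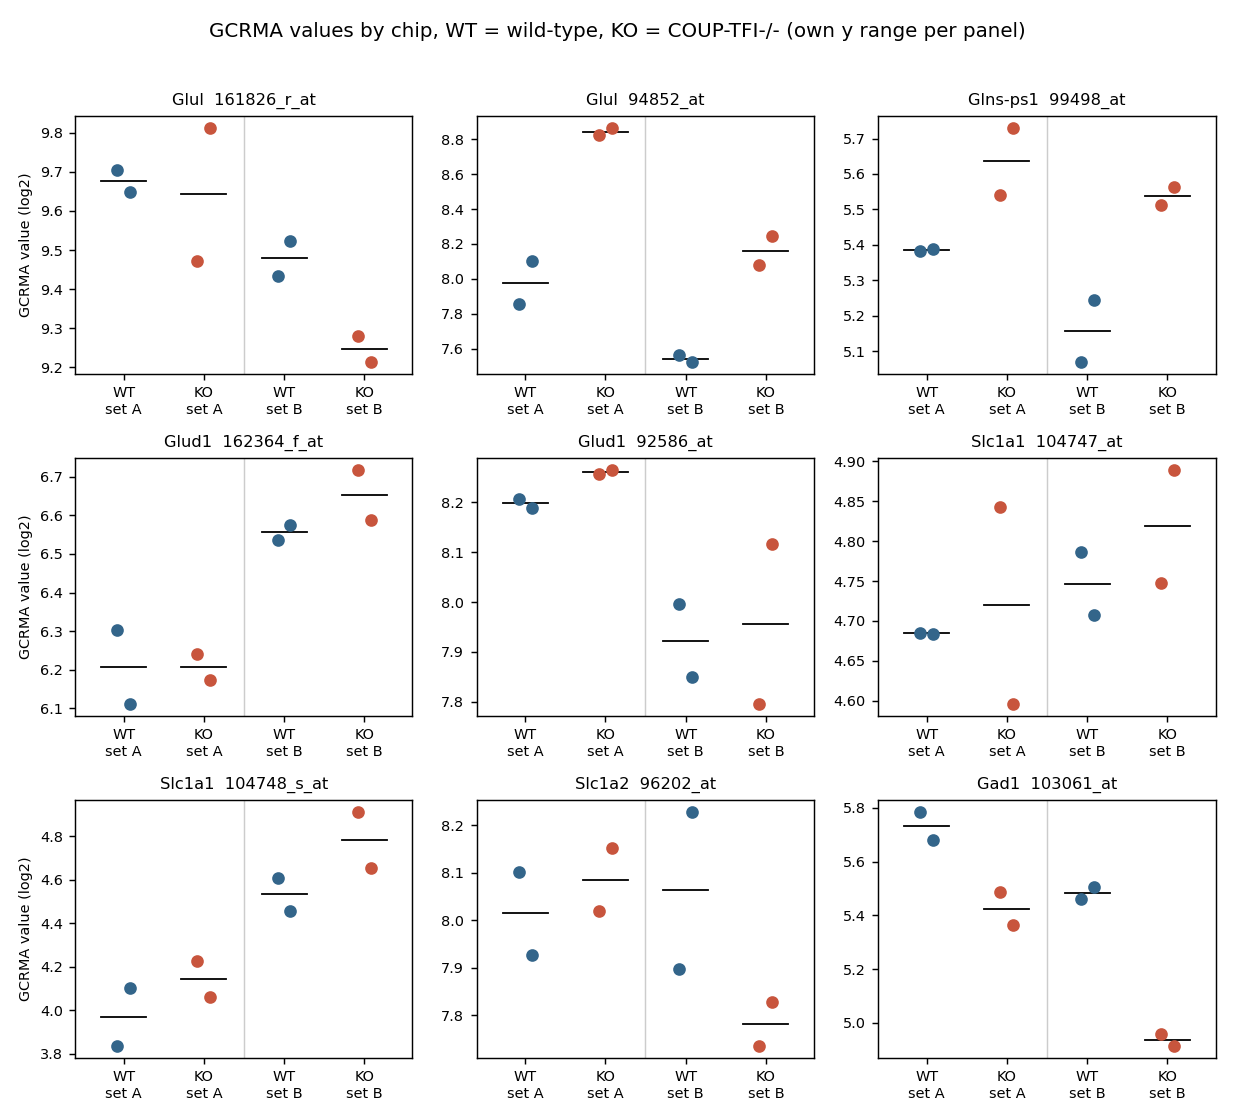
GCRMA values (log2, y axis) of the 9 probe sets on each chip, with blue points for wild-type (WT) and red points for COUP-TFI-/- (KO), 2 duplicate chips per pool and a line at their mean; each panel has its own y range. For Glul 94852_at, Glns-ps1 99498_at and Gad1 103061_at the genotypes separated within both sets, while Glul 161826_r_at overlapped in set A.

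Gad1 probe set 103061_at was lower in COUP-TFI-/- within both sets and with both normalizations. With GCRMA, chips A1, A2, B1 and B2 had 5.79, 5.68, 5.46 and 5.51 in wild-type and 5.49, 5.36, 4.96 and 4.91 in COUP-TFI-/-. Both COUP-TFI-/- chips lay below both wild-type chips in each set, and chip A1 of COUP-TFI-/- overlapped with wild-type of set B. The GCRMA difference was -0.31 for set A against -0.55 for set B. With dChip the intensities were 64.7, 61.5, 58.1 and 60.8 in wild-type and 57.2, 57.2, 40.6 and 41.0 in COUP-TFI-/-, with no overlap. That gave -0.14 for set A and -0.54 for set B (mean -0.34, SE 0.13). Gad1 lay between the percentiles 13.1 and 23.7 of the chip with GCRMA and 5.79 and 10.3 with dChip, so its level was near the low end of what the chips measured. Gad2, the other glutamate decarboxylase and no listed gene, differed by -0.05 with GCRMA and by 0.35 with dChip (limma adjusted p = 1.00 for both).

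The probe sets of Glud1 gave no direction that held across sets and normalizations. For 92586_at the GCRMA values ran from 7.85 to 8.21 in wild-type and from 7.80 to 8.27 in COUP-TFI-/-, a difference of 0.06 for set A and 0.03 for set B. Its dChip intensities ran from 787 to 866 in wild-type and from 733 to 967 in COUP-TFI-/-, which gave -0.11 for set A and 0.24 for set B, opposite in sign. For 162364_f_at, whose ending marks probes shared with similar sequences, GCRMA gave -0.00043 for set A and 0.10 for set B, and dChip -0.12 and -0.52. The GCRMA and dChip means of this probe set, 0.05 (SE 0.10) and -0.32 (SE 0.13), thus had opposite signs.

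Of the transporters, Slc1a1 (the neuronal and epithelial carrier EAAC1) and Slc1a2 (the glial carrier GLT-1) also differed in sign between sets or normalizations. Slc1a1 104748_s_at, whose ending marks probes common to several transcripts, had 0.17 (set A) and 0.25 (set B) with GCRMA, but 0.22 and -0.17 with dChip. Slc1a1 104747_at had 0.03 and 0.07 with GCRMA and 0.07 and -0.26 with dChip, and in dChip set B its COUP-TFI-/- chips (125 and 136) lay below the wild-type chips (151 and 161). Slc1a2 96202_at had 8.10, 7.93, 7.90 and 8.23 on the wild-type chips A1, A2, B1 and B2 and 8.02, 8.15, 7.73 and 7.83 on those of COUP-TFI-/-, with GCRMA. This came to 0.07 for set A and -0.28 for set B with GCRMA and 0.06 and -0.33 with dChip, so in set B alone the COUP-TFI-/- chips were the lower ones. GCRMA and dChip values stem from 1 hybridization per chip, so their likeness is not independent.

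**Figure D2:**
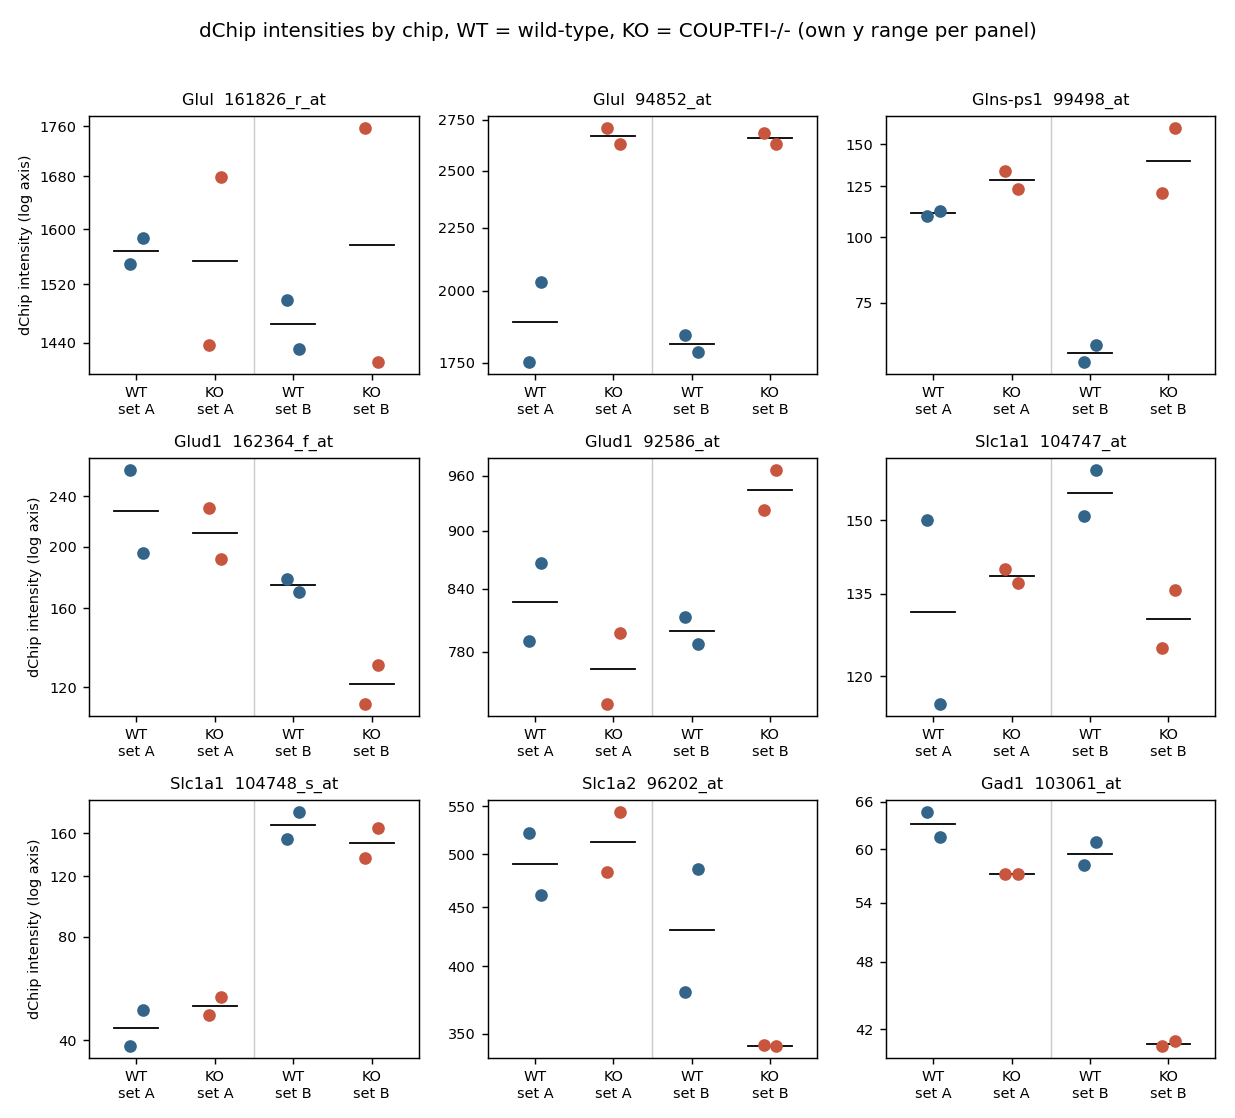
dChip intensities (y axis, log scale) of the same 9 probe sets on each chip, with colours, pools and lines (geometric means) as for the GCRMA values; each panel has its own y range. Glul 94852_at lay between 1752 and 2034 on the wild-type chips and between 2627 and 2709 on the COUP-TFI-/- chips.

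Counted over the 9 probe sets, 3 had COUP-TFI-/- and wild-type chips that did not overlap within either set and differed in the same direction with GCRMA, and the same number with dChip. These were Glul 94852_at, Glns-ps1 99498_at and Gad1 103061_at in both cases. Among all probe sets, 8.26% met this with GCRMA and 8.15% with dChip. By direction, 2 of the 9 were higher in COUP-TFI-/- (4.60% and 4.09% of all probe sets) and 1 was lower (3.65% and 4.06%). All 4 chips of a genotype lay apart from all 4 of the other for 1 of the 9 with GCRMA (Glns-ps1) and 3 with dChip, against 2.26% and 1.89% of all probe sets. Since the genes were chosen with this contrast known, nothing is read from the counts.

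**Figure D3:**
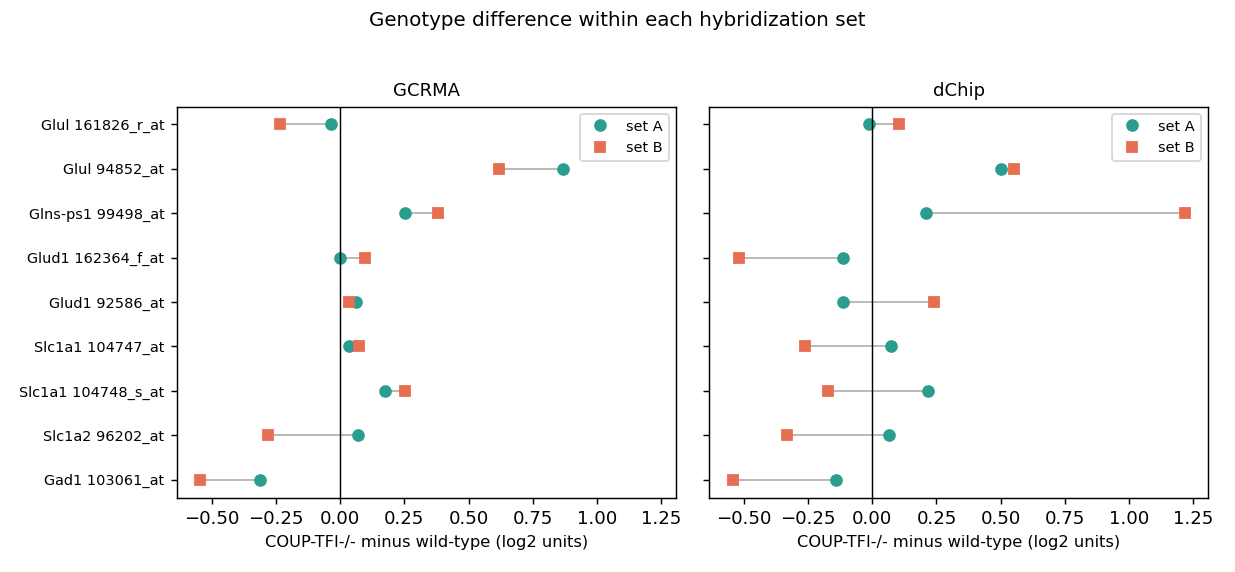
Genotype difference (COUP-TFI-/- minus wild-type, log2 units, x axis) of the 9 probe sets within set A (circles) and set B (squares), for GCRMA (left) and dChip (right). Glul 94852_at was at 0.50 or more in all 4 comparisons, rounded to 2 decimals, while Slc1a1 104747_at and Glud1 92586_at had opposite signs in the sets with dChip.

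Markers of other cell types were read beside these values. The striated muscle list (18 of 18 genes measured, 24 probe sets) had, in set A, a mean GCRMA value of 8.21 on both wild-type chips and 8.21 to 8.26 on the COUP-TFI-/- chips. In set B wild-type chips had 7.78 to 7.81 and COUP-TFI-/- chips 8.47 to 8.49, and 21 of its 24 probe sets were higher in COUP-TFI-/- on average. Its summed dChip intensity was 29532 to 29996 on the wild-type chips of set A against 28057 to 28924 for COUP-TFI-/-, and 20369 to 20617 against 33922 to 36344 in set B. Of this list, the developmental myosins Myh8 (1 of its probe sets, 0.98, limma adjusted p = 0.00916) and Myh3 (0.80, limma adjusted p = 0.0140) passed the genotype test with GCRMA, both higher in COUP-TFI-/-. The paper dropped genes with a significant interaction of genotype and time point, which in theory it ascribes to contaminating tissue from the dissection. It reports classes of striated muscle as overrepresented among those genes. The fit used here has no interaction term. The mean GCRMA value of the list of brown and white fat (8 of 10 genes, 11 probe sets) ran from 7.08 to 7.31 in wild-type and from 6.84 to 7.12 in COUP-TFI-/-, and was lower in COUP-TFI-/- within each set. By probe set, 4 of the 11 were higher in COUP-TFI-/- on average with GCRMA and 3 with dChip. The median differences were -0.10 and -0.05. Both probe sets of Ucp1, the uncoupling protein of brown fat, passed with GCRMA (-1.26, limma adjusted p = 2.6e-04, and -0.59, limma adjusted p = 0.0208). The list of glia and Schwann cells (11 of 16 genes, 18 probe sets) ran from 7.45 to 7.51 in wild-type and from 7.41 to 7.49 in COUP-TFI-/-, with a median genotype difference of -0.0085. Its summed dChip intensity was 11999 to 12573 on the wild-type chips and 11042 to 11948 on those of COUP-TFI-/-, which did not overlap. A sum weighs the brightest probe sets most. By probe set, the median dChip difference of the list was -0.019, and 7 of the 18 were higher in COUP-TFI-/-. Of this list Fabp7, a lipid-binding protein of glia, passed with GCRMA (-0.58, limma adjusted p = 0.0389). For neurons (16 of 16 genes, 20 probe sets) the median difference was -0.07 with GCRMA, where 0 passed, and -0.10 with dChip. Of the 20, 7 were higher in COUP-TFI-/- with GCRMA and 4 with dChip. Summed dChip intensities, wild-type first, were 13666 to 14389 against 13560 to 13592 in set A. Set B had 10873 to 11637 against 10210 to 10483, so the genotypes overlapped in neither set. Mean GCRMA values overlapped in set A (7.86 to 7.91 against 7.85 to 7.87) but not in set B (7.48 to 7.53 against 7.41 to 7.46). The list of inner ear epithelium and otic matrix (15 probe sets) was also lower in COUP-TFI-/- within each set. Mean GCRMA values were 8.38 to 8.39 against 8.21 to 8.24 in set A, wild-type first. In set B they were 8.00 to 8.01 against 7.84 to 7.87. On average 2 of the 15 were higher in COUP-TFI-/- with GCRMA and 3 with dChip. Median differences were -0.13 and -0.10, and 0 passed with GCRMA. With dChip 0 probe sets of these lists passed limma's adjusted p under 0.05, where only 1 of all 12421 probe sets passed. Arrays have no true 0, so no marker was called absent, and the part of these tissues in the genotype differences of Glul, Glns-ps1 and Gad1 was not tested.

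The comparison of set A with set B was not used to choose the genes and could be tested. It asks how far the level of each transcript differed between hybridizations at different times with different RNA pools, which cannot be told apart. Slc1a1 104748_s_at was lower in set A with both normalizations, at a low signal. It lay between the percentiles 4.04 and 12.6 of the chip with GCRMA and 4.93 and 33.9 with dChip. Its GCRMA values were 3.84, 4.11, 4.23 and 4.06 on the chips of set A and 4.61, 4.46, 4.91 and 4.66 on those of set B (wild-type first), with no overlap. The difference of set A minus set B was -0.60 (SE 0.10, limma adjusted p = 3.3e-04, n = 2 pools per set). With dChip the intensities were 38.4 to 53.3 in set A and 135 to 185 in set B, and the difference was -1.77 (SE 0.13, limma adjusted p = 0.00417). This dChip call was lost with values under 16 set to 16 (limma adjusted p = 0.0558, from 2.3e-05 over all alternatives). That floor changed no value of this probe set, whose lowest intensity was 38.4, and under it 0 of all probe sets passed the set test. The other Slc1a1 probe set, 104747_at, had differences of -0.08 (limma adjusted p = 0.577) and -0.08 (limma adjusted p = 0.694), so the 2 probe sets of this gene did not show the same set difference.

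Glud1 162364_f_at differed between the sets in opposite directions in the 2 normalizations. With GCRMA it was lower in set A, at 6.11 to 6.30 against 6.54 to 6.72 in set B, a difference of -0.40 (SE 0.10, limma adjusted p = 0.00677). With dChip it was higher in set A, at 191 to 264 against 113 to 178 in set B, a difference of 0.59 (SE 0.13, limma adjusted p = 0.0477). In neither case did the chips of the sets overlap. The dChip call was lost when 1 chip was left out, with a limma adjusted p of 0.144 (wild-type A1), 0.0558 (wild-type B1), 0.0679 (COUP-TFI-/- A1) or 0.0850 (COUP-TFI-/- B2), and over all alternatives it ran from 0.00282 to 0.144. Of 12421 probe sets, 1053 passed the set test with both normalizations and 6 of these had opposite signs (0.0483% of all), so the disagreement was rare on this chip. The other Glud1 probe set, 92586_at, was 0.29 higher in set A with GCRMA (SE 0.10, limma adjusted p = 0.0353) and had -0.13 with dChip (limma adjusted p = 0.521). That GCRMA call was lost without wild-type chip A2 (limma adjusted p = 0.0526), B1 (0.0506) or B2 (0.0612) or COUP-TFI-/- chip A1 (0.0744) or B1 (0.156), and its adjusted p ran from 0.00719 to 0.156 over all alternatives.

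With GCRMA, both Glul probe sets and Gad1 were higher in set A. For Glul 94852_at the difference was 0.56 (SE 0.10, limma adjusted p = 8.5e-04), 0.44 in wild-type and 0.68 in COUP-TFI-/-, and for 161826_r_at it was 0.30 (SE 0.10, limma adjusted p = 0.0371). The former call was lost when the genotype term was dropped (limma adjusted p = 0.214, from 2.6e-05 over all alternatives). The latter was lost without wild-type chip A1 (limma adjusted p = 0.0514), A2 (0.0511) or B1 (0.107) or COUP-TFI-/- chip A1 (0.0549), A2 (0.120) or B2 (0.0638), and ran from 0.00678 to 0.120 over all alternatives. With dChip neither passed, at 0.03 (SE 0.10, limma adjusted p = 0.847) and 0.04 (SE 0.10, limma adjusted p = 0.826). A set difference of Glul was thus called with GCRMA alone. Gad1 had 0.37 with GCRMA (SE 0.10, limma adjusted p = 0.0130, 0.0533 without COUP-TFI-/- chip A1, and 3.6e-04 to 0.188 over all alternatives) and 0.29 with dChip (limma adjusted p = 0.198). Glns-ps1 (0.16 and 0.38) and Slc1a2 (0.13 and 0.39) did not pass in either, with limma adjusted p of 0.234 and 0.311 for the former and 0.407 and 0.112 for the latter.

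In all, 6 of the 9 probe sets passed the set test with GCRMA, 4 higher in set A and 2 higher in set B, and 2 of 9 passed with dChip, 1 in each direction. Over all probe sets 25.8% passed with GCRMA and 11.7% with dChip, so a set difference was common on these chips. By direction the shares were 13.6% higher in set A and 12.2% higher in set B with GCRMA, and 6.76% and 4.90% with dChip. All chips of set A lay apart from all chips of set B for 3 of the 9 with GCRMA and 2 with dChip, against 37.1% and 40.5% of all probe sets. Neuron markers moved with the sets as well. With GCRMA, 14 of 20 probe sets passed the set test as higher in set A and 0 as higher in set B. Of the 15 probe sets of inner ear epithelium and otic matrix, 9 passed as higher in set A and 0 as higher in set B. Of the 18 of glia and Schwann cells, 4 passed on the side of set A and 2 on that of set B. The part of these tissues in the set differences of Glul, Gad1, Glud1 and Slc1a1 was not tested.

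**Figure D4:**
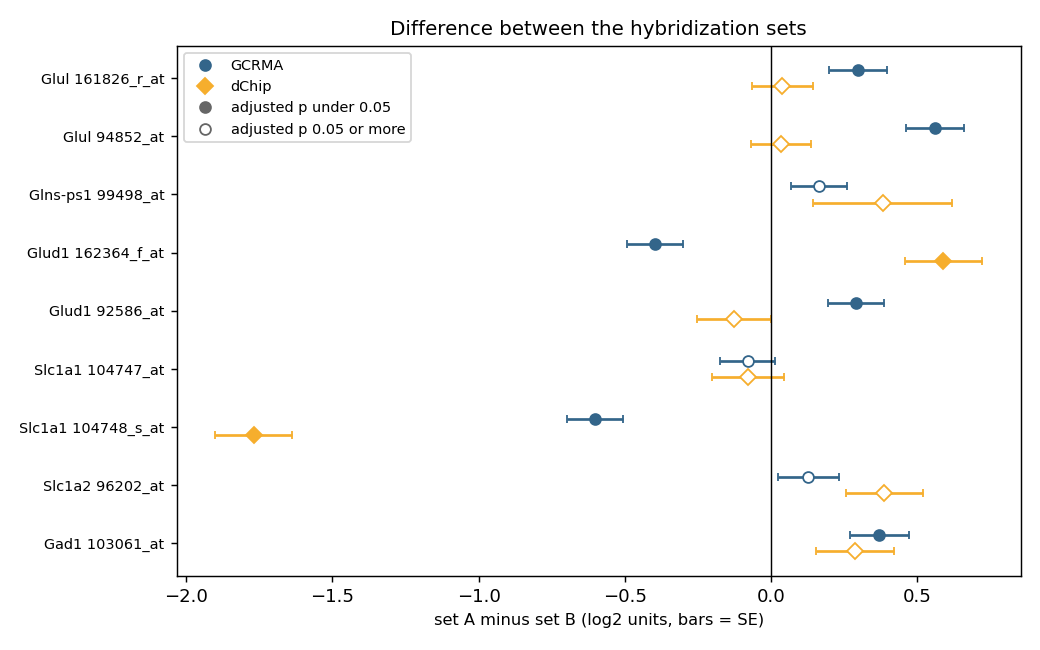
Set A minus set B (log2 units, x axis) of the 9 probe sets with GCRMA (blue circles) and dChip (yellow diamonds), with bars for the limma SE; filled symbols passed an adjusted p under 0.05. Glud1 162364_f_at was at -0.40 with GCRMA and 0.59 with dChip, and Slc1a1 104748_s_at was below 0 with both.

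Other genes of glutamate and GABA handling showed no genotype difference that passed the test. Of 106 genes in 5 lists, 59 were measured, by 77 probe sets. In limma on the pool means 0 of the 77 passed an adjusted p under 0.05 in either direction with GCRMA or with dChip, where 0.105% and 0.00805% of all probe sets passed. An unadjusted p under 0.05 was found for 0 of 77 with GCRMA and 2 with dChip, against 4.58% and 2.13% of all probe sets. These 2, named after their values were seen, were Gad2 and a dim probe set of the glutamine transporter Slc38a2 (162135_r_at, dChip difference -0.95 on a wild-type mean log2 value of 1.94, against 0.03 with GCRMA). The methods' 2-way analysis of variance also gave 0 with both normalizations, where 1 of all probe sets passed in each. At an unadjusted p under 0.05 it had 4 and 9 of the 77, against 10.8% and 12.5% of all probe sets. The median GCRMA difference of the 77 was 0.0067, and that of all probe sets 0.00077.

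By list, the limma adjusted p was 1.00 for each genotype difference named here. Of 29 probe sets of glutamine and glutamate enzymes (21 of 33 genes), 18 were higher and 11 lower in COUP-TFI-/- with GCRMA, with differences from -0.21 to 0.17. With dChip they ran from -1.22 to 0.21, and the lowest, Idh3a 161652_r_at (named after its values were seen), a dim probe set of a citric acid cycle enzyme, had -0.06 for set A and -2.39 for set B. The largest GCRMA difference that kept its sign in both sets and normalizations was Aldh18a1 95738_at, an enzyme that starts proline synthesis from glutamate, with -0.21 (SE 0.10, limma adjusted p = 1.00) and -0.12 with dChip. It was followed by Oat 161278_r_at, which links ornithine to glutamate, with 0.14 and 0.09, but the brighter Oat probe set, 92848_at, kept the opposite sign, with -0.07 and -0.10. Of the 13 probe sets of transporters (10 of 19 genes), with differences from -0.06 to 0.17 with GCRMA and from -0.95 to 0.12 with dChip, Slc7a5, an exchanger that exports glutamine for large neutral amino acids, had 0.17 (SE 0.10, limma adjusted p = 1.00) and 0.12 with dChip, and Slc38a4, a sodium-coupled amino acid transporter, 0.07 and 0.08. Among 4 probe sets of GABA handling (4 of 8 genes) the betaine and GABA transporter Slc6a12 had 0.05 and 0.13. Of 19 probe sets of glutamate receptors (13 of 26 genes) Grid1, a delta-type receptor subunit, had 0.05 and 0.20, and the list ran from -0.09 to 0.08 with GCRMA and from -0.48 (Gria2 92945_at) to 0.20 with dChip. For GABA receptors (12 probe sets, 11 of 20 genes) 0 kept 1 sign throughout, and their GCRMA differences ran from -0.16 to 0.14 and their dChip differences from -0.23 to 0.09.

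**Figure D5:**
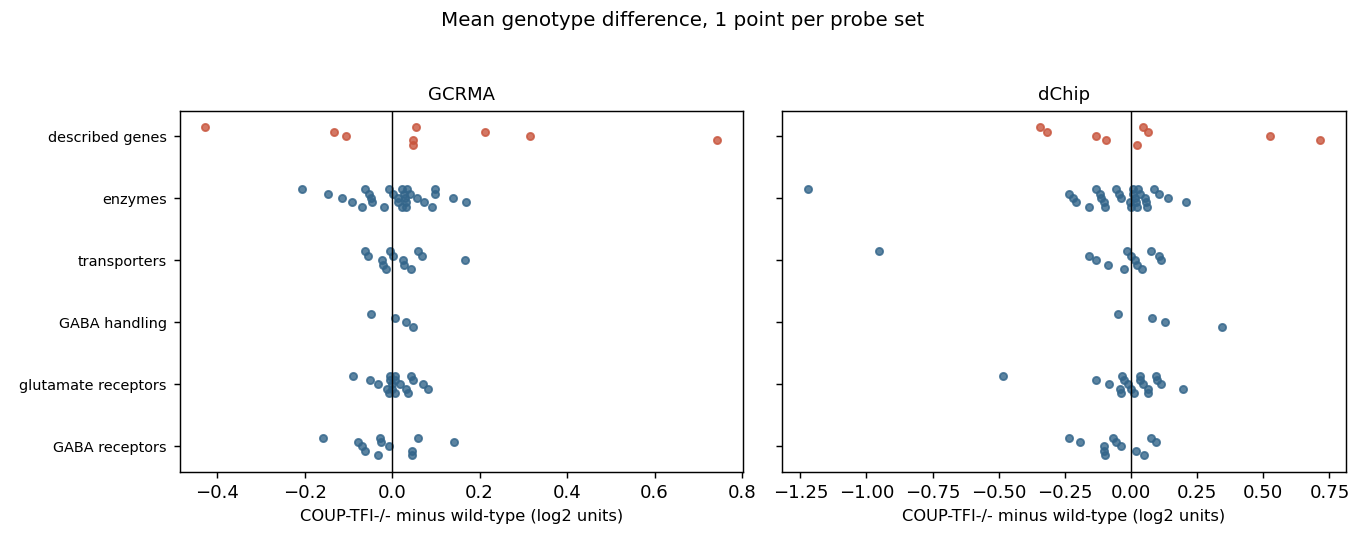
Mean genotype difference (COUP-TFI-/- minus wild-type, log2 units, x axis) with GCRMA (left) and dChip (right; the x ranges differ), 1 point per probe set, for the 9 described probe sets (red) and the 5 lists of other glutamate and GABA genes (blue). With GCRMA the 77 other probe sets lay between -0.21 and 0.17.

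Profiles over the 8 GCRMA chips, each centred on its own mean, were compared by their root mean square difference, as a description that includes the genotype contrast. For Glul 161826_r_at, which had the higher mean of the pair, the nearest were Sox3 (0.04), Hoxd1 (0.06), Ung (0.06), Nek2 (0.06) and Cox6c (0.06), against a median of 0.23 over all probe sets. For Glul 94852_at, added after its values were seen, the nearest were farther away. They were the adhesion molecule Vcam1 (0.19), the retinaldehyde dehydrogenase Aldh1a1 (0.19), the zinc finger factor Zbtb16 (0.20), the vasoconstrictor peptide Edn1 (0.23) and the copper carrier ceruloplasmin, Cp (0.23), against a median of 0.49. Their GCRMA genotype differences were 0.40, 0.42, 1.03, 0.35 and 0.39 and their set differences 0.59, 0.45, 0.47, 0.39 and 0.34. With dChip the genotype differences were 0.07, 0.40, 0.96, 0.10 and 0.12, so those of Vcam1, Edn1 and Cp were smaller there. For Gad1 the nearest were Hmgcs1 (0.06), an enzyme of cholesterol synthesis, Pdcd6 (0.10), Set (0.10), the sterol desaturase Sc5d (0.11) and the chaperone Hspa5 (0.11), against a median of 0.32, with GCRMA genotype differences of -0.41, -0.30, -0.38, -0.39 and -0.26. With dChip these differences were -0.47, -0.40, -0.17, -0.12 and -0.16, so those of Set, Sc5d and Hspa5 were smaller in size there.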

How the data were processed

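RNA from whole P0 inner ears was hybridized to 8 chips. The authors deposited log2 values normalized with GCRMA and linear intensities from dChip; software versions are not given in the sources used here. All 16 value columns were used. The letter of a chip was read as its hybridization set and the number as its duplicate. Affymetrix controls (66 probe sets) were left out, which left 12422 with GCRMA and, without 1 that had a missing value, 12421 with dChip. The 89 dChip values at or under 1 were set to 1 before log2 transformation. Duplicate chips were averaged, and the 4 pool means were fitted over all probe sets with limma 3.58.1 in R 4.3.3, with genotype and set as terms. There was 1 residual degree of freedom, to which limma's prior added 14.3 (GCRMA) and 4.55 (dChip), so an SE rests mostly on variance shared by all probe sets. Adjustment was by Benjamini-Hochberg over all probe sets, 2-sided, at 0.05. The fit was tested on simulated data. Pools of 1 set were hybridized together according to the methods and so are paired, and the set difference in wild-type correlated across probe sets with that in COUP-TFI-/- at 0.752 (GCRMA) and 0.688 (dChip).

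The genes, the lists of other pathway genes and the markers were chosen with earlier results of these data known. Named were all probe sets of the listed genes, other pathway genes past the test or otherwise the 2 per list with the largest GCRMA difference of 1 sign in both sets and normalizations, and the 5 nearest profiles of Glul and Gad1. Promoter windows and gene positions are from RefSeq (GRCm38.p6), and 6 of 7 listed genes had a window. Precision is limited by having 4 pools on 8 chips. Alternatives were quantile normalization, median centring, a filter on low means, a dChip floor of 16, the 8 chips as replicates, the methods' 2-way analysis of variance, dropping the set term (no replicate block) or the genotype term, and leaving out each chip.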

Additional observations from a re-analysis of the deposited data

How the results depend on the processing

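The genotype differences of Glul 94852_at, Glns-ps1 99498_at and Gad1 103061_at kept their direction under every alternative that was run. Their genotype chips did not overlap within either set, so leaving out a single chip could not turn the sign. The genes were also chosen with this contrast known, so nothing is read from the kept direction. Without single chips the dChip difference of Glul 94852_at lay between 0.47 and 0.58. The number of the 9 probe sets passing the set test with GCRMA, 6, became 3 when only probe sets with a mean above the median were fitted, 3 without the genotype term, and 3 to 5 when a chip was left out (3 without COUP-TFI-/- replicate A1). With dChip the count of 2 became 1 above the median, 1 without the genotype term, 0 by limma with a floor of 16 (where 0 of all probe sets passed), 5 with the 8 chips as replicates, and 1 to 3 when a chip was left out (1 without wild-type replicate A1 or B1 or COUP-TFI-/- replicate A1 or B2). Dim members are not fitted above the median, by construction, and the cause of the other changes was not tested. Over single probe sets and settings, a set call was lost in 27 cases and gained in 6. The sign of 3 dChip set differences near 0 turned. That of Glul 161826_r_at was -0.0075 with median centring and -0.040 to 0.12 without single chips, that of Glul 94852_at -0.012 and -0.021 to 0.087, and that of Slc1a1 104747_at -0.17 to 0.016 without single chips. With no replicate block, that is without the set term, 0 of the 77 other probe sets passed the genotype test with either normalization. In that setting 0 of all probe sets passed as well. No alternative made a call among the 77. At most 159 (GCRMA) and 67 (dChip) of all probe sets passed in an alternative, both with the 8 chips as replicates. Calls were so few on the whole chip that nothing is read from the 0.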

Other observations

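Between the sets, 4 of the 77 probe sets of other glutamate and GABA genes passed limma's adjusted p under 0.05 with both normalizations, and these had the same direction in both, against 1047 of 12421 of all probe sets (8.43%). They were named after their values were seen. Gria2 92945_at, a subunit of AMPA-type glutamate receptors, was higher in set A by 0.38 with GCRMA (SE 0.10, limma adjusted p = 0.00883) and by 1.30 with dChip (limma adjusted p = 0.0279). The kainate receptor subunit Grik1 was higher in set A by 0.42 (limma adjusted p = 0.00971) and 1.01 (limma adjusted p = 0.0169). Both receptor probe sets were dim. Their wild-type mean log2 values were 3.43 (Gria2) and 4.50 (Grik1) with GCRMA and 4.77 and 5.18 with dChip. Got2, the mitochondrial aspartate aminotransferase, had set A minus set B differences of -0.54 (limma adjusted p = 9.1e-04) and -1.14 (limma adjusted p = 0.00676), and Aldh18a1 95738_at had -0.56 (limma adjusted p = 7.3e-04) and -0.62 (limma adjusted p = 0.0283). The other probe sets of these genes did not pass with both normalizations. Got2 161995_r_at had 0.12 and -0.10. Aldh18a1 161391_r_at had 0.33 (limma adjusted p = 0.0406) and 0.41 (limma adjusted p = 0.273), so with GCRMA it passed in the direction opposite to 95738_at. For Gria2 the other probe sets were divided, with -0.20 and -0.38 for 92946_f_at, 0.22 and 0.31 for 92947_s_at and 0.03 and 0.87 for 162076_r_at. Among neuron markers, 14 of 20 probe sets with GCRMA and 8 of 20 with dChip passed the set test as higher in set A. The part of neurons in the receptor values was not tested.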
